A study of Mus musculus with 8 samples.

Results

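The 38 genes described here are 31 immediate early genes, among them the FOS and JUN genes of the AP-1 transcription factor, and 7 heat shock genes. They were taken by gene symbol from a table of 53801 rows, all 38 symbols were found, and all 38 passed the filter on low counts that left 15643 genes for testing. RNA came from stromal cells that were sorted by FACS from mouse small intestine as YFP+ and free of CD45 and CD31, the surface marks of leukocytes and endothelial cells. The mice are named LTβRfloxPDGFRα/YFP in the labels, so both sorted fractions carry the floxed lymphotoxin β receptor allele, and no library without it was analysed here. One fraction was sorted as PDGFRα- and the other as PDGFRα+, by the surface receptor for platelet-derived growth factor that many gut fibroblasts carry, with 4 libraries of each. RNA of the receptor gene, Pdgfra, did not follow the sort: it stood at 721, 750, 663 and 475 CPM (counts per 1000000, defined below) in the libraries labelled PDGFRα- and at 610, 656, 624 and 497 CPM in those labelled PDGFRα+ (log2 fold change -0.13, edgeR adjusted p = 0.971). Surface protein was not measured here, so both names stand for the labels of the sort alone. The sources used here do not give the driver of the recombinase, the age and sex of the mice, or whether cells of several mice were pooled. Nor do the labels say that each library is a separate mouse, and the p-values cover the spread among these 8 libraries only, some of which may be technical.

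Immediate early genes are switched on within minutes of a stimulus, without new protein synthesis, by factors that already sit in the cell, such as SRF with its partners at CArG boxes and CREB at cyclic AMP response elements. Many of their products are short-lived transcription factors, and FOS and JUN proteins pair to form AP-1. Enzymatic digestion and sorting of tissue are well known to switch these genes on, so their RNA in sorted cells need not be that of the tissue. Heat shock genes encode chaperones that fold or refold proteins, and the inducible ones are driven by HSF1, which binds heat shock elements built of GAA units in alternating orientation.

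The promoters of 5 of the genes are shown to set the DNA of both gene groups side by side. They were chosen because Fos, Dusp1 and Btg2 are immediate early genes on which the results below turn, and Hspa1a and Hspa1b are the inducible HSP70 genes. Each is the 250 bases before the RefSeq gene start on GRCm38.p6, written 5′ to 3′ on the strand of the gene. Capitals mark the cyclic AMP response element TGACGTCA or its core TGACG, and the heat shock element pair GAANNTTC. The regions are chr12:85473640-85473889 on the plus strand for Fos, and on the minus strand chr17:26508473-26508722 for Dusp1, chr1:134079156-134079405 for Btg2, chr17:34972157-34972406 for Hspa1a and chr17:34959239-34959488 for Hspa1b.
Fos: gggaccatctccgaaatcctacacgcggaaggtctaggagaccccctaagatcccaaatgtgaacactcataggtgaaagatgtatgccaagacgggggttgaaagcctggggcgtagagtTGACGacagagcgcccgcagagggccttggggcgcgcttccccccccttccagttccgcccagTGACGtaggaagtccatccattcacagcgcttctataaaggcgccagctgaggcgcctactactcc
Dusp1: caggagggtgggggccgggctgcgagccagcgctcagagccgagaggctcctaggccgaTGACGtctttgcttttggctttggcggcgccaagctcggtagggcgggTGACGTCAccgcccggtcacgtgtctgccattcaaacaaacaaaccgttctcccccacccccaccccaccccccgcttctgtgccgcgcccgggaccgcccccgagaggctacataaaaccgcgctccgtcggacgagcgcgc
Btg2: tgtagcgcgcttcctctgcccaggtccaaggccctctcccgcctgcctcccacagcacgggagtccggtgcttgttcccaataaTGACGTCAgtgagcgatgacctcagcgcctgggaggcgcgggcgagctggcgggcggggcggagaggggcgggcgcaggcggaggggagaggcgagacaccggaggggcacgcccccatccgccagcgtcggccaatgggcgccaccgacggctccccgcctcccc
Hspa1a: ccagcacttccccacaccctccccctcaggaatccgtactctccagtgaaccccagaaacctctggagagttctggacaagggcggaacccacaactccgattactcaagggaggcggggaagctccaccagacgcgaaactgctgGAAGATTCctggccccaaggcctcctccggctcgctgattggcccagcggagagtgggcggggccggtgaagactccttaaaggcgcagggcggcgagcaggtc
Hspa1b: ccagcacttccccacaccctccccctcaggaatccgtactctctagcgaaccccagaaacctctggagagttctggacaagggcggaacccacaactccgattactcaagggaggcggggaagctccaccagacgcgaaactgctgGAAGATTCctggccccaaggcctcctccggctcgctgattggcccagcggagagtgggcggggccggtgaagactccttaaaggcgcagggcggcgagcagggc

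Of the 38 genes, 31 have a promoter in the RefSeq table, 25 immediate early and 6 heat shock genes. These 31 genes have 41 promoter entries, and a gene was counted if any of its entries held the match. The shares of all promoters are over single entries, so genes with several entries had more windows to match in. The full response element TGACGTCA was found, on either strand, in 3 of the 25 immediate early genes and in none of the 6 heat shock genes. It lay 166 to 159 bases before the start in Btg2, 143 to 136 in Dusp1 and 29 to 22 in Maff. The element was in 1.55% of 32851 promoters of the same length. Its core TGACG, which lies inside it and was added after the data were seen, was found in 14 of 25 and 2 of 6, against 17.8% of all promoters. The 2 cores in Fos lie 129 to 125 and 66 to 62 bases before the start. A CArG box was found in 2 of the 25, Zfp36 and Egr2, and in 1.47% of all promoters, and the AP-1 site TGANTCA in none of either group and in 6.75% of all. The full heat shock element, 3 alternating GAA units with 2 bases between neighbours, was in none of the 31 genes and in 0.466% of all promoters. The pair GAANNTTC, also added after the data were seen, was in 4 of the 6 heat shock genes (Hspa1a, Hspa1b, Hspb1 and Dnaja1). It was in 2 of the 25 immediate early genes (Jun and Fosl2) and in 6.69% of all promoters. The Hspa1a and Hspa1b promoters share 247 of 250 bases, or 98.8%, and each has its pair 104 to 97 bases before the start. These matches describe the letters in the window and do not show that a factor binds there.

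Sequencing depth was 12926651 to 35115771 counts per library, in which the 31 immediate early genes took 1.01% to 2.74% and the 7 heat shock genes 0.119% to 0.209% of the counts. Levels are counts per 1000000 (CPM) of the library size scaled by edgeR's TMM factor, listed in the order of replicate numbers 1 to 4. The same numbers occur in both fractions, and the labels do not say what same-numbered libraries share. An edgeR fit with the fraction alone is therefore the main test (unpaired), and the fit that adds the number as a term (blocked) is given beside it because the authors' own deposited model used the number. PDGFRα+ library 2 stood apart: it was the lowest of all 8 libraries for 26 of the 31 immediate early genes, or 83.9%, against 17.6% of all genes tested. Markers of other cell types varied between libraries. The sum of 6 smooth muscle markers ran from 346 to 1733 CPM in PDGFRα- and from 424 to 1388 CPM in PDGFRα+ libraries. Number 1 was the lowest in both fractions, and 5 of the 6 passed an edgeR test of the number, against 4.28% of all genes. Of 5 pericyte markers, Cspg4 was called higher in PDGFRα+ cells in the blocked edgeR fit (log2 fold change 1.17, adjusted p = 0.0402). Abcc9 was called lower there (-1.40, adjusted p = 0.0053). The summed level of 12 endothelial markers ran from 98.3 to 1026 CPM in PDGFRα- libraries, highest in library 4, and from 76.2 to 214 CPM in PDGFRα+ libraries. The sum of 13 leukocyte markers ran from 22.9 to 118 CPM and from 23.4 to 32.2 CPM. The Itgam entry in this sum was at 0 in all libraries, and another Itgam entry, whose exons overlap it, was left out. The sum of 8 fibroblast markers ran from 119043 to 168418 and from 89078 to 114520 CPM, and most of it came from the collagen genes Col1a1, Col1a2 and Col3a1, which were called lower in PDGFRα+ cells in the blocked edgeR fit (adjusted p = 0.0155, 0.0137 and 0.0107). Vim was called higher there (log2 fold change 0.44, adjusted p = 0.0442), Pdgfrb and Pdgfra were not called, and the median log2 fold change of the 8 in the unpaired fit was -0.40. The 6 mitochondrial transcripts summed to 4403 to 6241 and 3837 to 5294 CPM, with 6 of 6 log2 fold changes negative, a median of -0.26 and none called in either fit. The part of other cell types, of the fibroblast markers and of the mitochondrial transcripts in the results was not tested.

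Most immediate early genes had lower values in PDGFRα+ cells, but none passed the main test. Their log2 fold changes (PDGFRα+ over PDGFRα-) were negative for 30 of 31 genes, with Nr4a3 the exception, against 50.9% of all genes tested, and their median was -0.40 against -0.01 over all genes and -0.40 over the 8 fibroblast markers. In the unpaired edgeR fit 0 of 31 passed an adjusted p of 0.05 in either direction (0.0511% of all genes were called lower and 0.192% higher). At an unadjusted p under 0.05, 8 of 31 were lower, against 3.22% of all genes, and DESeq2 and limma-voom with the fraction alone also called 0. In the blocked edgeR fit 8 of 31 were called lower and 0 higher, where 0.933% of all genes were called lower and 1.34% higher. The 8 were Fos, Jun, Junb, Klf4, Dusp1, Socs3, Nfkbiz and Btg2. In bulk RNA of this kind, fewer cells expressing a gene and less of its RNA per cell cannot be told apart.

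The 7 heat shock genes had negative log2 fold changes in 7 of 7 and a median of -0.40, so by the size of the median they did not stand out from the immediate early genes. No heat shock gene was called in either edgeR fit, and at an unadjusted p under 0.05 in the unpaired fit 1 of 7 was lower, Dnajb1. The smallest adjusted p in the blocked edgeR fit was 0.0585, also for Dnajb1. The blocked medians were -0.53 for the immediate early and -0.38 for the heat shock genes, against -0.01 for all genes. With 7 genes against 31, the difference in calls between the gene groups was not tested. The counts depended on the tool: DESeq2 with the number as a term called 16 of the 31 immediate early and 3 of the 7 heat shock genes lower, where it called 2.68% of all genes lower.

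**Figure D1:**
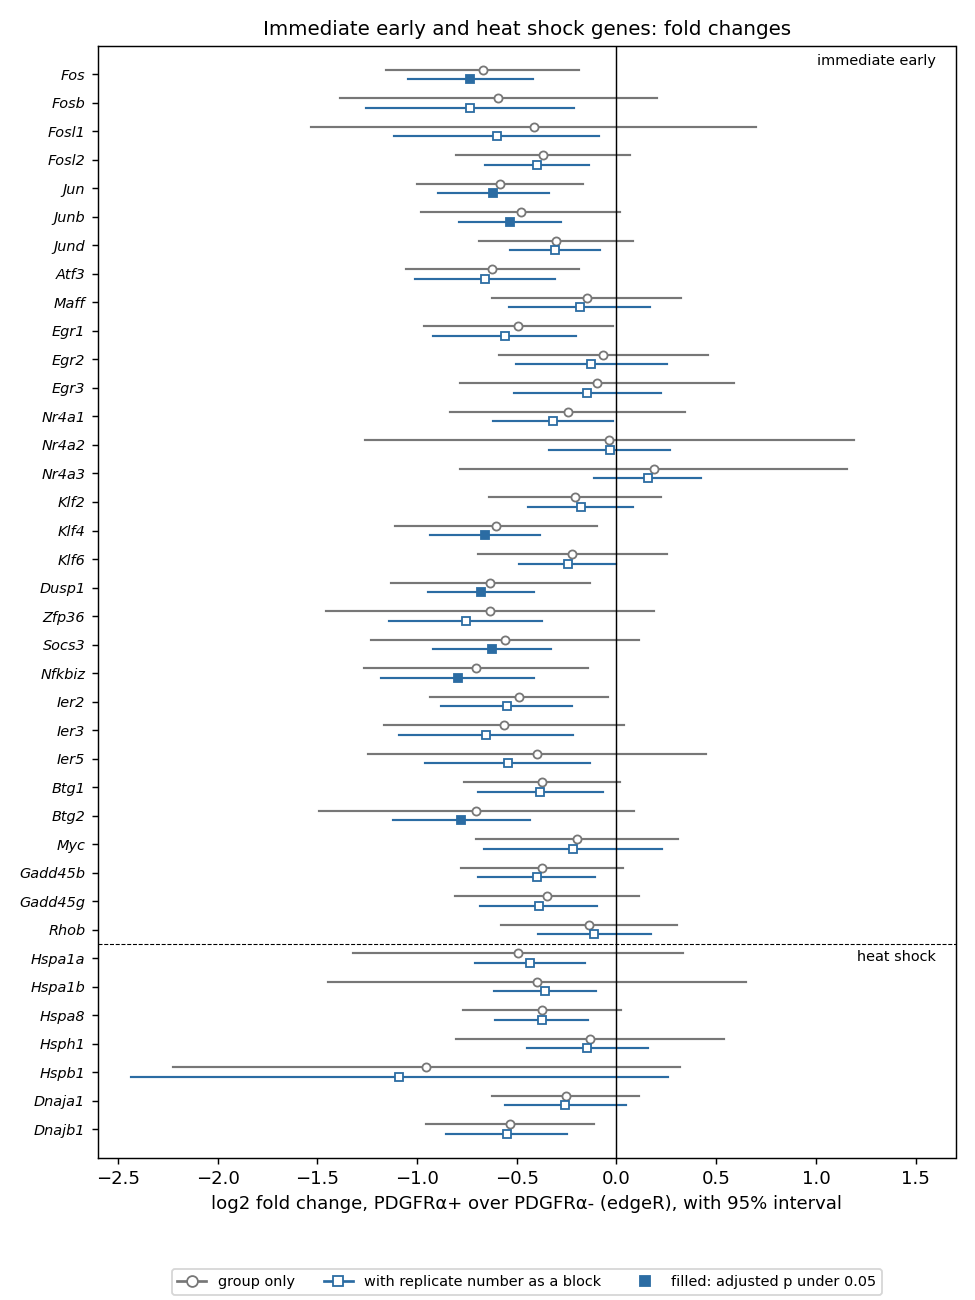
Log2 fold change (x axis, PDGFRα+ over PDGFRα-) of the 31 immediate early and 7 heat shock genes (y axis) with the 95% interval, in the unpaired edgeR fit (grey circles) and the blocked edgeR fit (blue squares), filled where the adjusted p was under 0.05. All genes except Nr4a3 lie left of 0, 8 immediate early genes are filled in the blocked fit, and none is filled in the unpaired fit.

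Without PDGFRα+ library 2 the immediate early values lay nearer to 0. The median over the 31 immediate early genes in the unpaired edgeR fit was then -0.27, and 26 of 31 were negative, again with 0 called. This library was singled out for its low values in these genes, so a move of the median towards 0 follows from that choice. Without PDGFRα+ library 1, 3 or 4 the median was -0.39, -0.51 or -0.62, with 31 of 31 negative in the last case. Leaving out a PDGFRα- library gave -0.36 to -0.48. The blocked fit without number 2 had a median of -0.30 and 25 of 31 negative, and called 7 genes lower, 6 of them among the 8 (Fos, Jun, Klf4, Dusp1, Nfkbiz and Btg2) and Zfp36, against 0.634% of all genes called lower. The heat shock median without PDGFRα+ library 2 was -0.38, close to that over all libraries. With other single libraries left out it moved more, to -0.63 without PDGFRα- library 3 and to -0.29 without PDGFRα+ library 3. The blocked count also moved with the other numbers. It was 10 without number 4, with all 8 genes among them, 1 without number 1 (Dusp1) and 1 without number 3 (Btg2). The share of all genes called lower moved as well, to 0.725%, 0.457% and 0.140% in these fits.

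The FOS family gave the most abundant transcript of the set. Fos (ENSMUSG00000021250, chromosome 12, 85473890 to 85477273 on GRCm38) encodes the classic FOS subunit of AP-1, and per kilobase of exon it had the highest level of the 38 genes, 1146 ± 356 CPM per kb (SD over 8 libraries). Fos stood at 3541, 2992, 2980 and 3733 CPM in the PDGFRα- libraries and at 2027, 1172, 2285 and 2833 CPM in the PDGFRα+ libraries. Every PDGFRα+ library was below every PDGFRα- library, with library 2 the lowest. The means were 3311 ± 384 and 2080 ± 692 CPM (SD, n = 4). Its log2 fold change was -0.67 ± 0.23 (SE) in the unpaired edgeR fit (adjusted p = 0.400, 95% interval -1.15 to -0.19) and -0.73 ± 0.15 in the blocked edgeR fit (adjusted p = 0.0188), or 1.66-fold lower. The promoter of Fos printed above holds the pair of TGACG cores.

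Fosb, whose product also pairs with JUN proteins, followed Fos in this family by level per kilobase. Its values were 1973, 2053, 2092 and 3057 CPM in the PDGFRα- libraries and 1284, 645, 1535 and 2619 CPM in the PDGFRα+ libraries. Each PDGFRα+ library was below the PDGFRα- library of its number, but the fractions overlapped, since PDGFRα+ library 4 exceeded PDGFRα- libraries 1 to 3. Neither edgeR fit called Fosb (log2 fold change -0.59, adjusted p = 0.865 unpaired, and -0.73, adjusted p = 0.204 blocked). Fosl1 and Fosl2 encode the FOS-related antigens and were the low members. Fosl1 ranged from 20.97 to 55.3 CPM in PDGFRα- and from 7.95 to 51.1 CPM in PDGFRα+ libraries, and Fosl2 from 276 to 393 and from 172 to 325 CPM. Both overlapped between the fractions, and the blocked edgeR fit gave adjusted p = 0.307 and 0.126.

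All 3 JUN genes were lower in the PDGFRα+ library of each of the 4 numbers, and Jun and Junb were called in the blocked fit. Jun (ENSMUSG00000052684, chromosome 4, 95049034 to 95052222) encodes the main partner of FOS in AP-1. Its levels were 2642, 2596, 2213 and 2867 CPM in PDGFRα- and 1808, 1146, 1680 and 2250 CPM in PDGFRα+ libraries. Only the highest PDGFRα+ library, number 4, reached into the PDGFRα- range, just above PDGFRα- library 3. Jun had a log2 fold change of -0.58 ± 0.19 (SE, edgeR adjusted p = 0.398) unpaired and -0.62 ± 0.13 (edgeR adjusted p = 0.0198) blocked, from 2580 ± 271 to 1721 ± 455 CPM (SD, n = 4). Junb (ENSMUSG00000052837, chromosome 8, 84974484 to 84978718) encodes a JUN protein that can oppose JUN at some targets. It gave 1000, 1111, 1273 and 1490 CPM in PDGFRα- and 610, 613, 1041 and 1231 CPM in PDGFRα+ libraries. The order of the numbers was the same in both fractions, lowest in 1 and 2 and highest in 4, and Junb also passed an edgeR test of the number (adjusted p = 0.0216), as did 4.28% of all genes. Its fold change was -0.48 ± 0.23 (log2, SE, edgeR adjusted p = 0.753) unpaired and -0.53 ± 0.12 (edgeR adjusted p = 0.0283) blocked. Jund, the JUN gene with the steadiest expression in most cells, ranged from 398 to 599 and from 332 to 510 CPM and was not called (blocked edgeR adjusted p = 0.196). Exons of all 3 overlap a gene on the other strand (Junos, Prdx2 and Gm11175), and since the strand setting of the counting is not given in the sources used here, reads of such partners cannot be told apart. The same limit holds for Fosl1 (Ccdc85b), Dusp1, Zfp36 (Gm44710), Hspa1a (Gm20481) and Dnaja1 (Gm6297 and Smu1). It also holds for Ctgf, Tiparp and Maf among the further genes called below.

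Atf3 and Maff encode other basic leucine zipper proteins, ATF3 being a stress-induced repressor that can join JUN, and MAFF a small MAF protein without an activation domain. Atf3 stood at 712, 831, 679 and 853 CPM in PDGFRα- and at 537, 309, 509 and 642 CPM in PDGFRα+ libraries, with no overlap. The difference, from 769 ± 86.4 to 499 ± 139 CPM (SD, n = 4), just missed the threshold in the blocked fit (log2 fold change -0.62, edgeR adjusted p = 0.378 unpaired, and -0.66, adjusted p = 0.0557 blocked). Maff read 114, 157, 148 and 179 CPM in PDGFRα- and 130, 82.2, 143 and 184 CPM in PDGFRα+ libraries, overlapping widely. Its log2 fold change of -0.15 in the unpaired edgeR fit (adjusted p = 0.975) turned to 0.03 without PDGFRα+ library 2.

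Egr1, a zinc finger factor induced through SRF, was the second in level per kilobase, at 752 ± 198 CPM per kb (SD over 8 libraries). It gave 3648, 3968, 4055 and 4094 CPM in PDGFRα- and 2339, 1658, 3616 and 3601 CPM in PDGFRα+ libraries. The fractions did not overlap, but PDGFRα+ libraries 3 and 4 lay just under the PDGFRα- range while 1 and 2 lay far below it. Egr1 was not called (log2 fold change -0.49, edgeR adjusted p = 0.695 unpaired, and -0.56, adjusted p = 0.131 blocked). Its relatives Egr2 and Egr3 were far lower and showed no such gap. Egr2 had 62.7, 74.1, 94.2 and 73.1 CPM in PDGFRα- and 61.0, 41.7, 89.3 and 98.6 CPM in PDGFRα+ libraries, and Egr3 ranged from 37.3 to 75.8 and from 23.6 to 72.4 CPM. Without PDGFRα+ library 2 their log2 fold changes turned from -0.07 to 0.13 and from -0.10 to 0.13.

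The NR4A genes encode orphan nuclear receptors that act without a ligand, and none was called between the fractions, while all 3 passed the edgeR test of the number. Nr4a1 stood at 776, 560, 642 and 908 CPM in PDGFRα- and at 607, 299, 655 and 875 CPM in PDGFRα+ libraries. Nr4a3 gave 109, 61.4, 114 and 193 CPM in PDGFRα- and 131, 57.3, 142 and 213 CPM in PDGFRα+ libraries. Nr4a2, given here after its values were seen, gave 73.4, 25.3, 58.2 and 115 CPM and 74.5, 22.6, 65.04 and 104 CPM. In all 3 genes and both fractions number 2 was the lowest and number 4 the highest library. The adjusted p of the number in edgeR was 0.0236 for Nr4a1, 1.29e-04 for Nr4a2 and 2.42e-04 for Nr4a3. Between the fractions the log2 fold changes were -0.24 for Nr4a1, -0.04 for Nr4a2 and 0.19 for Nr4a3 in the unpaired edgeR fit (adjusted p from 0.970 to 0.998). The sign for Nr4a2 turned with 3 single libraries left out in turn, with values up to 0.35, and that for Nr4a3 turned to -0.03 without PDGFRα- library 2 and to -0.11 without PDGFRα+ library 4.

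Of the Krüppel-like factors, Klf4 was called in the blocked fit. Klf4 (ENSMUSG00000003032, chromosome 4, 55527143 to 55532466) encodes a zinc finger factor tied to growth arrest and pluripotency. It stood at 865, 600, 645 and 817 CPM in PDGFRα- and at 547, 277, 432 and 671 CPM in PDGFRα+ libraries. Numbers 1 and 4 were high in both fractions, so the ranges overlapped although each PDGFRα+ library was below its number. The fit gave Klf4 a value of -0.60 ± 0.24 (log2, SE, edgeR adjusted p = 0.542) unpaired and of -0.66 ± 0.13 (edgeR adjusted p = 0.0118) blocked, between means of 732 ± 129 and 482 ± 167 CPM (SD, n = 4). Klf2, known for its response to shear stress in endothelium, gave 155, 154, 95.8 and 189 CPM and 135, 132, 100 and 147 CPM. Its lowest libraries were those of number 3, which no other immediate early gene showed in both fractions. Klf6, given per library after its values were seen, gave 255, 254, 226 and 373 CPM and 197, 197, 202 and 354 CPM, with number 4 the highest in each fraction, and neither Klf2 nor Klf6 was called (blocked edgeR adjusted p = 0.661 and 0.429).

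**Figure D2:**
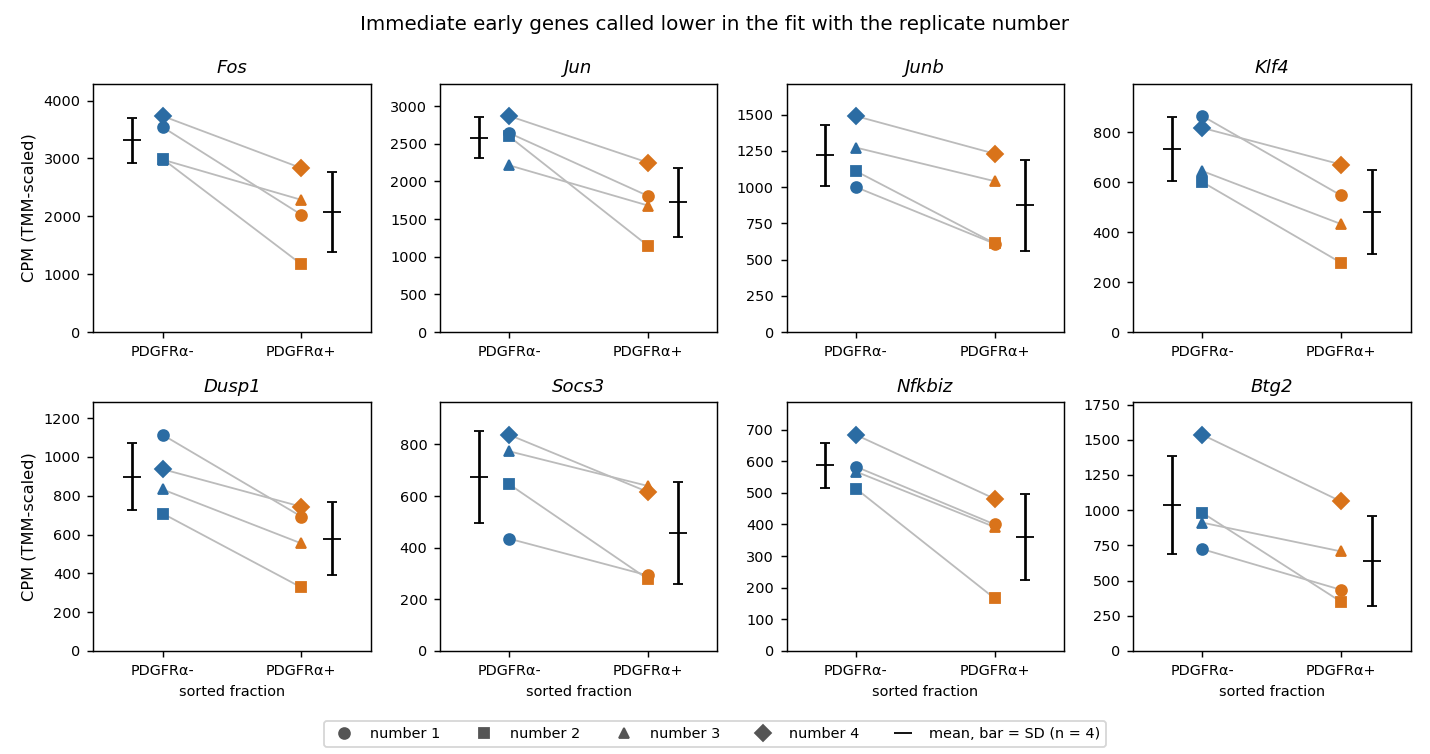
Level (y axis, CPM from 0) of the 8 immediate early genes called in the blocked edgeR fit, by sorted fraction (x axis), with 1 point per library, a symbol and a joining line per replicate number, and the mean with SD (n = 4) beside the points. Each line falls from PDGFRα- to PDGFRα+ in all 8 genes, and the fractions are free of overlap for Fos and Nfkbiz.

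Of the 4 genes grouped here as feedback regulators, 3 were called in the blocked fit, all lower. Dusp1 (ENSMUSG00000024190, chromosome 17, 26505590 to 26562128), the phosphatase that switches off MAP kinases, had the smallest blocked adjusted p of the 38 genes. It stood at 1114, 708, 832 and 937 CPM in PDGFRα- and at 692, 327, 554 and 743 CPM in PDGFRα+ libraries. Number 2 was the lowest in each fraction, and only PDGFRα+ library 4 lay above the lowest PDGFRα- library. Dusp1 went from 898 ± 172 to 579 ± 186 CPM (SD, n = 4), a log2 fold change of -0.63 ± 0.23 (SE, edgeR adjusted p = 0.478) unpaired and -0.68 ± 0.13 (edgeR adjusted p = 0.0078) blocked. Its exons overlap Ergic1 on the other strand. Socs3 (ENSMUSG00000053113, chromosome 11, 117966079 to 117970047) blocks cytokine signals through JAK and STAT. Its levels were 435, 646, 774 and 837 CPM in PDGFRα- and 292, 278, 639 and 616 CPM in PDGFRα+ libraries. Numbers 3 and 4 were high in both fractions. Means of 673 ± 178 and 456 ± 198 CPM gave -0.56 ± 0.31 (log2, SE, edgeR adjusted p = 0.836) unpaired and -0.62 ± 0.14 (edgeR adjusted p = 0.0280) blocked. Nfkbiz (ENSMUSG00000035356, chromosome 16, 55811375 to 55838899) encodes IκBζ, a nuclear partner of NF-κB that steers a subset of its targets. It gave 583, 514, 567 and 684 CPM in PDGFRα- and 400, 166, 392 and 481 CPM in PDGFRα+ libraries. The fractions did not overlap, and PDGFRα+ library 2 lay far below the other 3. Nfkbiz had the lowest blocked value among the called genes, -0.80 ± 0.17 (log2, SE, edgeR adjusted p = 0.0381), or 1.74-fold lower, and -0.70 ± 0.26 (edgeR adjusted p = 0.490) unpaired. Zfp36, which encodes the RNA-destabilizing protein tristetraprolin, gave 743, 946, 1136 and 1412 CPM and 440, 326, 905 and 1057 CPM. It lay just outside the threshold at -0.76 ± 0.18 (log2, SE, blocked edgeR adjusted p = 0.0509).

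The IER genes encode short proteins with roles in growth control and survival. Ier2 varied little in the PDGFRα- fraction, at 331, 315, 325 and 344 CPM, and it gave 233, 134, 272 and 297 CPM in PDGFRα+ libraries. All PDGFRα+ values lay below all PDGFRα- values, yet Ier2 missed the threshold (blocked edgeR log2 fold change -0.55, adjusted p = 0.0894). Ier3 read 134, 89.6, 107 and 97.4 CPM and 76.5, 32.4, 85.5 and 95.9 CPM, an overlap by PDGFRα+ library 4 alone (blocked edgeR adjusted p = 0.146). Ier5 ranged from 215 to 347 and from 81.1 to 332 CPM (blocked edgeR adjusted p = 0.223).

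Among the growth and stress genes, Btg2 was called and the other 5 were not. Btg2 (ENSMUSG00000020423, chromosome 1, 134075170 to 134079120) encodes an antiproliferative protein that recruits mRNA deadenylases and is a p53 target. It stood at 723, 981, 911 and 1535 CPM in PDGFRα- and at 434, 349, 707 and 1062 CPM in PDGFRα+ libraries. Number 4 was the highest in both fractions, so the ranges overlapped while each PDGFRα+ library was below its number. With means of 1038 ± 349 and 638 ± 321 CPM (SD, n = 4), Btg2 had a log2 fold change of -0.70 ± 0.35 (SE, edgeR adjusted p = 0.793) unpaired and -0.78 ± 0.16 (edgeR adjusted p = 0.0230) blocked. Gadd45b, a stress sensor upstream of p38 and JNK, gave 483, 389, 394 and 363 CPM and 339, 208, 384 and 326 CPM (blocked edgeR adjusted p = 0.190). Its relative Gadd45g ranged from 189 to 264 and from 113 to 247 CPM, and Btg1 from 130 to 194 and from 96.6 to 156 CPM. Myc, the growth regulator, was low, from 31.6 to 50.1 and from 24.0 to 48.1 CPM, and the GTPase gene Rhob ran from 123 to 248 and from 150.0 to 220.1 CPM. The blocked edgeR adjusted p of these 4 ran from 0.209 for Gadd45g to 0.848 for Rhob.

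Across the immediate early genes the fractions were free of overlap, with PDGFRα+ lower, in 5 of 31 (Fos, Atf3, Egr1, Nfkbiz and Ier2), against 2.36% of all genes. The PDGFRα+ library was the lower of its number in all 4 numbers for 20 of 31, against 10.2% of all genes. Besides the low PDGFRα+ library 2, PDGFRα- library 4 stood out as the highest of 8 for 20 of 31, or 64.5%, against 14.1% of all genes. The latter is the library with 1026 CPM of summed endothelial markers and 118 CPM of leukocyte markers. The part of such cells in its immediate early values was not tested. The immediate early share of all counts was 2.02%, 2.07%, 2.19% and 2.74% in the PDGFRα- and 1.46%, 1.01%, 1.87% and 2.31% in the PDGFRα+ libraries, so PDGFRα+ library 4 exceeded PDGFRα- libraries 1 to 3. In the authors' deposited table, which comes from DESeq2, 16 of the 31 immediate early and 3 of the 7 heat shock genes (Hspa1a, Hspa8 and Dnajb1) were lower at an adjusted p under 0.05, against 2.60% of the genes tested here.

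**Figure D3:**
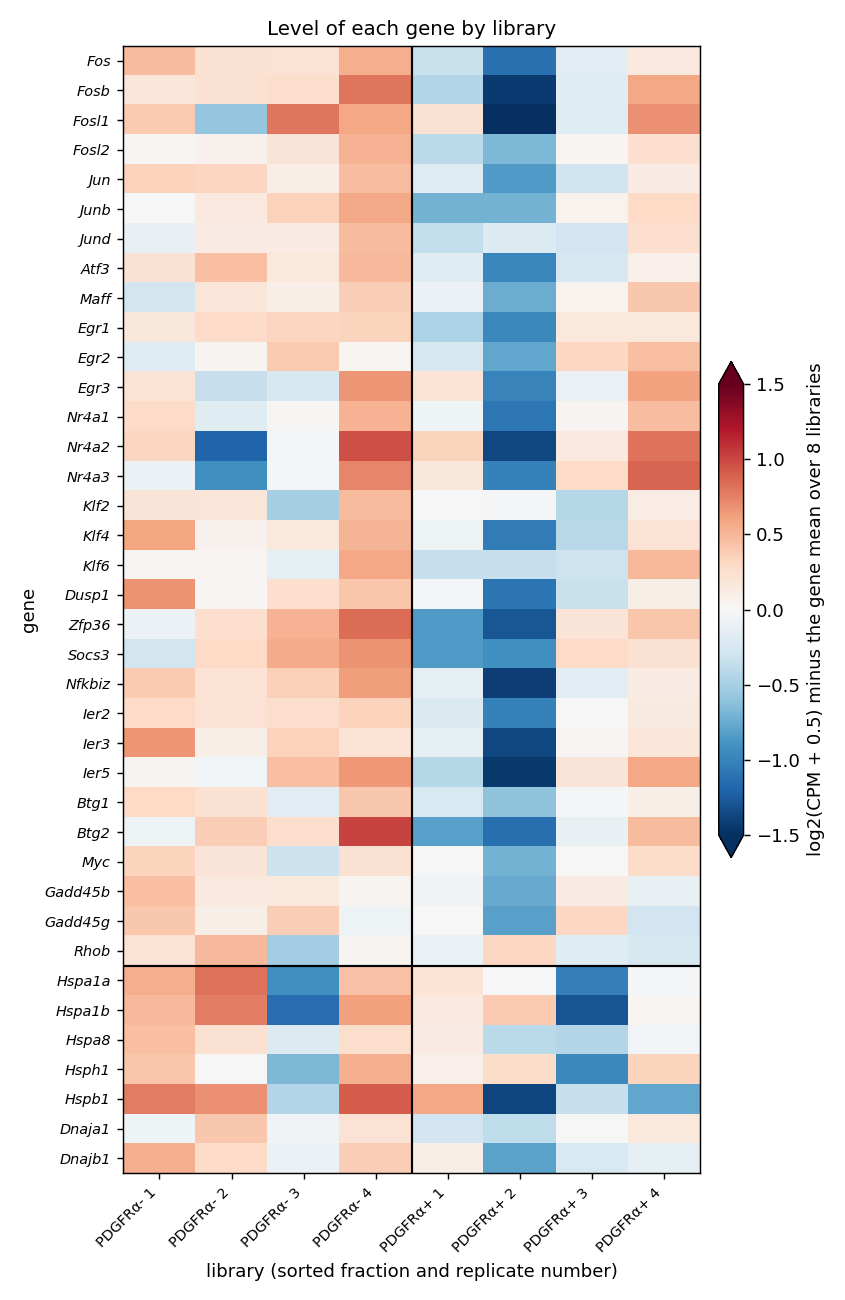
Level of each of the 38 genes (y axis) in each of the 8 libraries (x axis), as log2(CPM + 0.5) minus the mean of the gene over the 8 libraries, red above and blue below it. PDGFRα+ library 2 is blue down most of the 31 immediate early genes, PDGFRα- library 4 is mostly red, and both libraries of number 3 are blue for Hspa1a, Hspa1b and Hsph1.

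None of the 7 heat shock genes was called between the fractions, while 3 of them, Hspa1a, Hspa1b and Hsph1, passed the edgeR test of the number. Hspa1a (ENSMUSG00000091971, chromosome 17, 34969190 to 34972156) and Hspa1b (ENSMUSG00000090877, chromosome 17, 34956436 to 34959238) encode the inducible HSP70 chaperone from neighbouring genes. Hspa1a stood at 314, 378, 113 and 291 CPM in PDGFRα- and at 247, 214, 105 and 212 CPM in PDGFRα+ libraries. Both libraries of number 3 were low and lay close to each other, and the other 6 ranged from 212 to 378 CPM. The fractions had means of 274 ± 113 and 195 ± 61.8 CPM (SD, n = 4), with a log2 fold change of -0.49 ± 0.37 (SE, edgeR adjusted p = 0.926, 95% interval -1.32 to 0.33) unpaired and -0.43 ± 0.13 (edgeR adjusted p = 0.112) blocked. Hspa1b, given here after its values were seen, had the same shape, 220, 267, 70.8 and 241 CPM and 175, 207, 64.0 and 161 CPM (blocked edgeR log2 fold change -0.36, adjusted p = 0.171). The test of the number in edgeR gave adjusted p = 0.0011 for Hspa1a and 1.15e-04 for Hspa1b. These genes cannot be read apart with certainty, as 60.3% of the 50-base windows of Hspa1a transcripts also occur elsewhere, nearly all of them in Hspa1b, and reads of such windows may be split or dropped in counting.

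Hspa8, the constitutive HSC70 chaperone (ENSMUSG00000015656, chromosome 9, 40800984 to 40810087), was the most abundant heat shock gene, at 191 ± 42.2 CPM per kb (SD over 8 libraries). It gave 1099, 944, 698 and 965 CPM in PDGFRα- and 876, 606, 594 and 782 CPM in PDGFRα+ libraries. Number 3 was again the lowest of each fraction, though PDGFRα+ library 2 was nearly as low. The means of 927 ± 167 and 715 ± 138 CPM (SD, n = 4) gave a log2 fold change of -0.38 ± 0.18 (SE, edgeR adjusted p = 0.763) unpaired and -0.38 ± 0.11 (edgeR adjusted p = 0.0996) blocked. Windows shared with other genes, mostly with Gm15459, made up 36.2% of Hspa8, and snoRNA genes lie within it on the same strand.

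Hsph1, an HSP110 protein that exchanges the nucleotide on HSP70, is given here after its values were seen, since it too was lowest in number 3 in both fractions. It stood at 117, 87.8, 54.6 and 126 CPM and at 92.1, 105, 44.2 and 110 CPM, with a log2 fold change of -0.13 in the unpaired edgeR fit (adjusted p = 0.988) that turned to 0.02 without PDGFRα- library 4 and to 0.09 without PDGFRα+ library 3. The J-domain genes Dnajb1 and Dnaja1 encode HSP40 partners that hand clients to HSP70. Dnajb1, given after its values were seen because it came nearest to a call, stood at 296, 251, 193 and 264 CPM and at 218, 117, 175 and 185 CPM, and only PDGFRα+ library 1 reached into the PDGFRα- range. Its fold change was -0.53 ± 0.20 (log2, SE, edgeR adjusted p = 0.480) unpaired and -0.55 ± 0.14 (edgeR adjusted p = 0.0585) blocked. Dnaja1 ranged from 153 to 212 and from 122 to 177 CPM (blocked edgeR adjusted p = 0.536). Hspb1, the small chaperone HSP27, was the lowest of the 38 genes per kilobase, at 2.96 to 8.29 and 1.31 to 6.53 CPM, and its 30 to 228 counts per library gave it the widest intervals. Windows shared with Hsp25-ps1 made up 48.8% of Hspb1, and 11.6% of Dnaja1 windows also occur elsewhere. Reads of such windows may be split or dropped in counting, so the low Hspb1 counts need not mean low expression. In all, 4 of 7 heat shock genes were lowest at number 3 in both fractions (Hspa1a, Hspa1b, Hspa8 and Hsph1), against 1 of 31 immediate early genes (Klf2) and 5.57% of all genes.

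**Figure D4:**
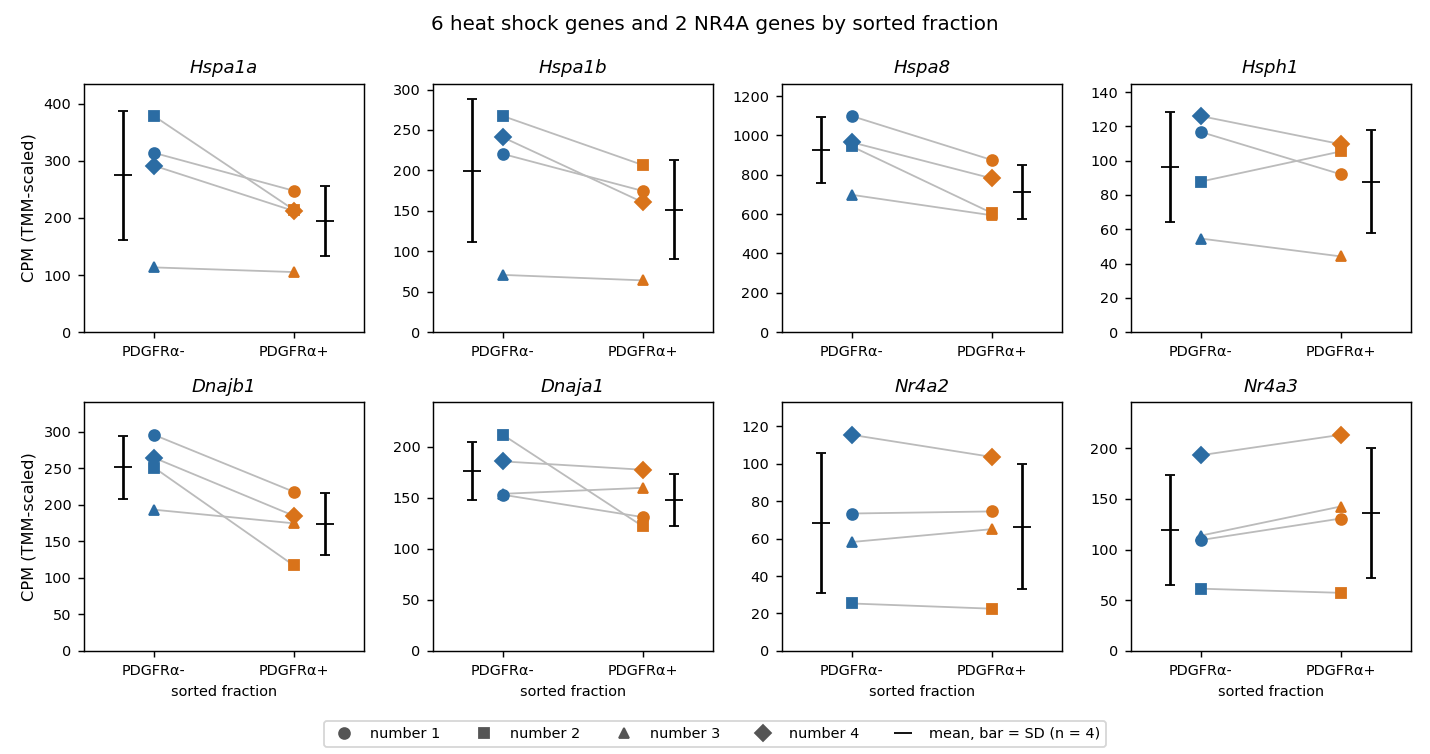
Level (y axis, CPM from 0) of 6 heat shock genes and of Nr4a2 and Nr4a3, by sorted fraction (x axis), drawn as in the plot of the called immediate early genes, with the mean and SD (n = 4). The triangles of number 3 lie lowest for Hspa1a, Hspa1b, Hspa8 and Hsph1 in both fractions, and in the NR4A genes the squares of number 2 lie lowest and the diamonds of number 4 highest.

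The libraries therefore ranked differently by these 31 immediate early and by these 7 heat shock genes. Of the 4 heat shock genes lowest at number 3 in both fractions, Hspa1a and Hspa1b cannot be read apart with certainty. The median over the 31 immediate early genes of log2(CPM + 0.5) minus the gene mean was 0.22, 0.15, 0.19 and 0.51 in the PDGFRα- and -0.18, -0.97, 0.00 and 0.25 in the PDGFRα+ libraries. Over the 7 heat shock genes it was 0.49, 0.41, -0.44 and 0.43 in the PDGFRα- and 0.13, -0.39, -0.43 and -0.02 in the PDGFRα+ libraries. PDGFRα- library 3 was thus above the mean for immediate early genes and below it for heat shock genes, and PDGFRα+ library 2 was low in both. Number 3 holds the shallowest PDGFRα- library, at 12926651 counts, and a PDGFRα+ library of 29764487 counts. The part of depth in its low heat shock values was not tested. By the edgeR test of the number, 12 of 31 immediate early and 3 of 7 heat shock genes differed between numbers, against 4.28% of all genes.

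**Figure D5:**
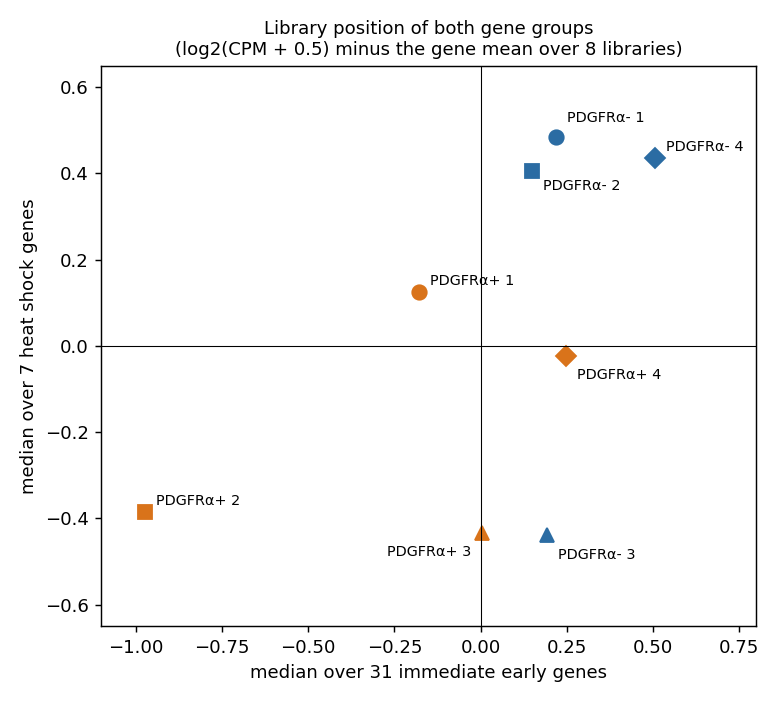
Each library placed by its median over 31 immediate early genes (x axis) and over 7 heat shock genes (y axis), both as log2(CPM + 0.5) minus the gene mean over 8 libraries, blue for PDGFRα- and orange for PDGFRα+. PDGFRα+ library 2 lies alone at -0.97 on the x axis, and both libraries of number 3 lie near -0.44 on the y axis.

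Other genes of these pathways had medians nearer to 0 than the 38 genes. Of 42 further immediate early genes, 40 were tested, and none was called in the unpaired edgeR fit, where their median log2 fold change was -0.27. In the blocked fit, which called 0.933% of all genes lower and 1.34% higher, 3 of the 40 were lower. These were Errfi1, an inhibitor of the EGF receptor (log2 fold change -0.59, edgeR adjusted p = 0.012), Tiparp, an ADP-ribosyltransferase (-0.60, adjusted p = 0.018), and the bZIP factor Maf (-0.49, adjusted p = 0.047). One was higher, Ctgf, which encodes a matricellular growth factor and YAP target, at 31.6, 55.5, 15.6 and 23.0 CPM in PDGFRα- and 60.8, 186, 74.7 and 43.4 CPM in PDGFRα+ libraries (blocked log2 fold change 1.46, edgeR adjusted p = 0.0019). Its highest library was PDGFRα+ library 2, the lowest for most of the 31. Among 31 further heat shock and chaperone genes, 1 was called in the blocked edgeR fit, the small heat shock gene Hspb8 (log2 fold change -0.79, adjusted p = 0.0073), and the median in the unpaired fit was -0.08. The low level at number 3 in both fractions was not general among these further genes. Of genes picked after their values were seen, Hsp90aa1, Hsp90ab1 and Bag3 were lowest in library 2 within PDGFRα+. Hsp90ab1 stood there at 1212, 865, 942 and 1051 CPM. Hsf2, also picked later, was lowest at number 3 in each fraction. None of 12 upstream factors, SRF, its cofactors, CREB1 and MAP kinases among them, was called in either edgeR fit, and their median was 0.05.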

How the data were processed

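RNA of sorted cells was made into libraries with a SMARTer Pico kit for stranded total RNA, per the labels' protocols, and processed with cutadapt 3.4, STAR 2.7.3a, featureCounts 2.0.1 and DESeq2 on GRCm38 (mm10), per the submitters' processing notes. The sources used here give no parameters, strand setting or annotation release. The deposited table holds raw, whole-number counts. The authors' scores in the same table, counts scaled by size factors and rounded, their means and dispersions, were not tested. The authors' deposited comparison holds a fold change as a ratio, its log2 value and a p-value per gene.

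From the counts, edgeR 4.0.16 (R 4.3.3) was run with TMM, filterByExpr and robust quasi-likelihood tests, Benjamini-Hochberg adjusted over 15643 genes with a threshold of 0.05. Scripts were tested on simulated data. Alternatives were DESeq2 1.42.0, limma-voom (limma 3.58.1), RLE normalization, no filter, the replicate block, and each library or number left out. CPM is per 1000000 counts. The SE of a log2 fold change was worked back from the edgeR test, as its absolute value over the square root of the F statistic. The 95% intervals were built from this SE and the t distribution. Reads amplified without molecular identifiers do not count molecules, so intervals cover counting error and the spread between libraries only. No 2 libraries agreed within counting noise (chi-square of 35.7 to 154 per degree of freedom). Positions are from GENCODE M21, which holds 53706 of 53801 identifiers, and promoters from RefSeq.

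Over 29254 genes, the deposited dispersions were within 8.73e-04% of DESeq2's with number and group, and up to 7498% from DESeq2's with group alone. Deviations of same-numbered libraries correlated at 0.28, 0.20, 0.04 and 0.30 over all tested genes for numbers 1 to 4. As one is under 0.1, this does not establish pairing. A total of 669 genes passed the edgeR test of the number.

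All 38 genes are named. Values per library are given for genes past the threshold in either fit and for the 2 most abundant per kilobase in each role group, other genes given per library being marked as chosen later. Pathway genes are named where called or where marked as picked later. Genes and lists were chosen with earlier results of these data known.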

Additional observations from a re-analysis of the deposited data

Results flagged for a closer look

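In 76 groups of 4 libraries (38 genes in 2 fractions), 1 library lay far from the other 3 by Dixon's criterion (critical value 0.829) in 2 groups. Chance gives this in about 1 in 20 groups. Fosb stood at 3057 CPM in PDGFRα- library 4, where the other PDGFRα- libraries ranged from 1973 to 2092 CPM. Klf6 stood at 354 CPM in PDGFRα+ library 4, where the other PDGFRα+ libraries ranged from 197 to 202 CPM.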

How the results depend on the processing

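Over 19 alternatives, the 38 genes gave 722 values, of which 634 kept direction and side of the threshold, 68 kept direction and passed it, and 20 changed sign. With the replicate number as a block, calls went from 38 to 355 over all genes (209 higher, 146 lower), from 0 to 8 of the 31 immediate early genes, from 0 to 4 of the other immediate early genes and from 0 to 1 of the other heat shock genes. DESeq2 with the block gave 805, 16, 11 and 2 for these lists, and 3 of the 7 heat shock genes. limma-voom with the block, added after seeing the data, gave 582, 14, 9 and 2, and 3. Without the filter edgeR gave 277 over all genes, 5 immediate early genes (Fos, Jun, Atf3, Dusp1 and Nfkbiz) and 1 other heat shock gene. DESeq2 with group alone gave 207 over all genes and 1 other immediate early gene. Leaving out single libraries gave 7 to 49 calls over all genes unpaired, and 0 of the 38 genes. With the block, leaving out numbers 1 to 4 in turn gave 196, 281, 99 and 300 over all genes, 1, 7, 1 and 10 immediate early genes, 3, 3, 1 and 4 other immediate early genes and 1, 1, 0 and 1 other heat shock genes. Same-numbered libraries correlated at 0.59, 0.32, 0.27 and 0.60 over genes of at least 20 CPM, a block check chosen after seeing the data, and over all genes 7 of 8 libraries were closest to their own number. The cause of these differences was not tested.

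Log2 fold changes that changed sign were small, and none passed the threshold. Without 1 library, Maff ran from -0.33 to 0.027, Egr2 from -0.24 to 0.13, Egr3 from -0.34 to 0.14, Nr4a2 from -0.33 to 0.35, Nr4a3 from -0.11 to 0.52, Rhob from -0.30 to 0.016 and Hsph1 from -0.33 to 0.090. In the block without number 2, values were 0.066 for Maff, 0.11 for Egr2, 0.027 for Egr3, 0.014 for Nr4a2 and 0.019 for Myc, and without number 4 Nr4a2 was at 0.0076.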
